A study of Homo sapiens with 6 samples.

Results

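The TNF and TNF receptor superfamily was examined in MM.1S, a human multiple myeloma cell line, with and without CD38. Members were taken by symbol from the protein-coding genes of the count table, as TNFSF and TNFRSF genes together with CD27, CD70, CD40, CD40LG, FAS, FASLG, LTA, LTB, LTBR and TNF. The receptors of BAFF and APRIL with their ligands (TNFRSF17, TNFRSF13B, TNFRSF13C, TNFSF13 and TNFSF13B) were left out. This gave 38 members of 60671 genes, 22 receptors and 16 ligands. The rule used names only and no expression value. Both cell populations carried GFP and click beetle red luciferase from a lentivirus. The WT group was 3 libraries of MM.1S cells sorted as CD38-positive, and the CD38 KO group was 3 libraries of 1 CRISPR/Cas9 knockout clone sorted as CD38-negative. Dead cells had been gated out of both. Each group's replicates were prepared from its sorted population, per the labels, so each p-value sets 1 clone beside 1 sorted WT population, with the scatter of such replicates as its error. A difference made by the loss of CD38 cannot be told apart from one made by the choice of the clone or by the sort.

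Ligands of this superfamily are mostly trimeric proteins of the cell surface, some of which are also cut free, and each binds 1 or more receptors with cysteine-rich repeats. Death-domain receptors, such as FAS and the TRAIL receptors, recruit FADD or TRADD and can lead through caspases to apoptosis. Other receptors, such as CD40 and TNFRSF1B, bind TRAF adaptors and activate NF-kB and MAP kinases, which in B cells and plasma cells favour survival. Decoy receptors bind a ligand without passing on a death signal. CD70 is the ligand of CD27 and is normally found on activated lymphocytes, and TRAIL, the product of TNFSF10, can kill many tumour cells.

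Total counts were 61515519 to 72335496 per library. Levels are given as CPM, a gene's count per 1000000 counts of its library after TMM scaling. For a gene at 0 counts, counting error alone leaves room for up to 3 counts, which is 0.0405 to 0.0504 CPM depending on the library. The targeted gene, CD38, averaged 40.6 ± 1.90 CPM over the WT libraries and 0.972 ± 0.322 over the knockout libraries (SD, n = 3), in the direction of the labels. Of 7 plasma cell markers, 7 were at a mean of 1 CPM or more, with a summed level of 6711 to 6777 CPM in WT and 8712 to 8742 CPM after knockout. The 6 T cell markers summed to 2.13 to 2.39 CPM in WT and 5.69 to 6.43 CPM in CD38 KO, and 1 of them, CD3E, was at a mean of 1 CPM or more. The 5 NK cell markers summed to 61.6 to 68.9 and 54.6 to 59.6 CPM, again with 1 at 1 CPM or more, NCAM1, while the 6 myeloid markers summed to 2.36 to 2.96 and 1.24 to 1.69 CPM with none at that level. Stromal markers (6 genes, with LUM at 0 counts) summed to 3.49 to 4.55 and 5.38 to 6.40 CPM, and the 4 endothelial markers to at most 0.0676 CPM in WT and 0.371 to 0.438 CPM in CD38 KO. Of 4 epithelial markers, 1 (KRT8) was at 1 CPM or more, and they summed to 1.51 to 2.92 CPM in WT and 1.46 to 2.15 CPM in CD38 KO. Mitochondrially encoded genes held 2.63% to 2.71% of the counts in WT and 6.83% to 7.30% in CD38 KO. The part of these differences in the results below was not tested.

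The largest changes in the superfamily were among its ligands. CD70, TNFSF15 and TNFSF10 rose in CD38 KO, TNFSF9 rose less, and LTA, a lymphotoxin chain, fell. LTB, the other chain, was called lower too, but it passed the filter on low counts through the WT libraries alone, where it is high. Receptors moved less: TNFRSF1A, TNFRSF10B, TNFRSF10D and TNFRSF14 rose, FAS, TNFRSF21 and TNFRSF10C fell, and CD40, TNFRSF1B and TNFRSF10A were not past the threshold. A gene was called changed at an adjusted p under 0.05 in edgeR's quasi-likelihood test across all genes, with Benjamini-Hochberg adjustment over 20120 tested genes. Of the 38 members, 22 had enough counts to be tested and 13 of those were called, 8 higher and 5 lower, the 5 with LTB. In the same fit 44.4% of all tested genes were called, 22.8% higher and 21.6% lower. When library size alone set the scale, the median of all genes moved to -0.083 on the log2 scale and 3632 genes were called higher and 5570 lower, in place of 4592 and 4342, and the members had 7 and 7. In 13 of the 22 the groups did not overlap, as in 52.5% of all tested genes, and 5, all of them ligands and LTB among them, were called with a change of at least 2-fold, as were 11.3% of all tested genes. Of the 15 members at a mean of 1 CPM or more over the 6 libraries, 12 were called, 8 higher and 4 lower. Among tested protein-coding genes at that level, 61.0% were called, 30.7% higher and 30.3% lower. The groups did not overlap for 12 of these 15 members (67.2% of those genes), and 4 were called at 2-fold or more (8.86%). The median log2 fold change of the 22 tested members was 0.11, against 0.00021 over all tested genes, with members between -3.21 and 2.03. The median moved when 1 library was left out, and so did the number of tested members. In 4 of these fits 23 members were tested and the median was the value of 1 member. It was that of TNFRSF14 without WT replicate 2 (0.19) and without CD38 KO replicates 1 and 3 (0.17 and 0.21). Without CD38 KO replicate 2 it was that of TNFRSF10A (0.0023). Without WT replicates 1 and 3, 24 were tested, with medians of 0.13 and 0.11. Because these are bulk libraries, fewer cells with a transcript and less RNA per cell cannot be told apart.

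**Figure D1:**
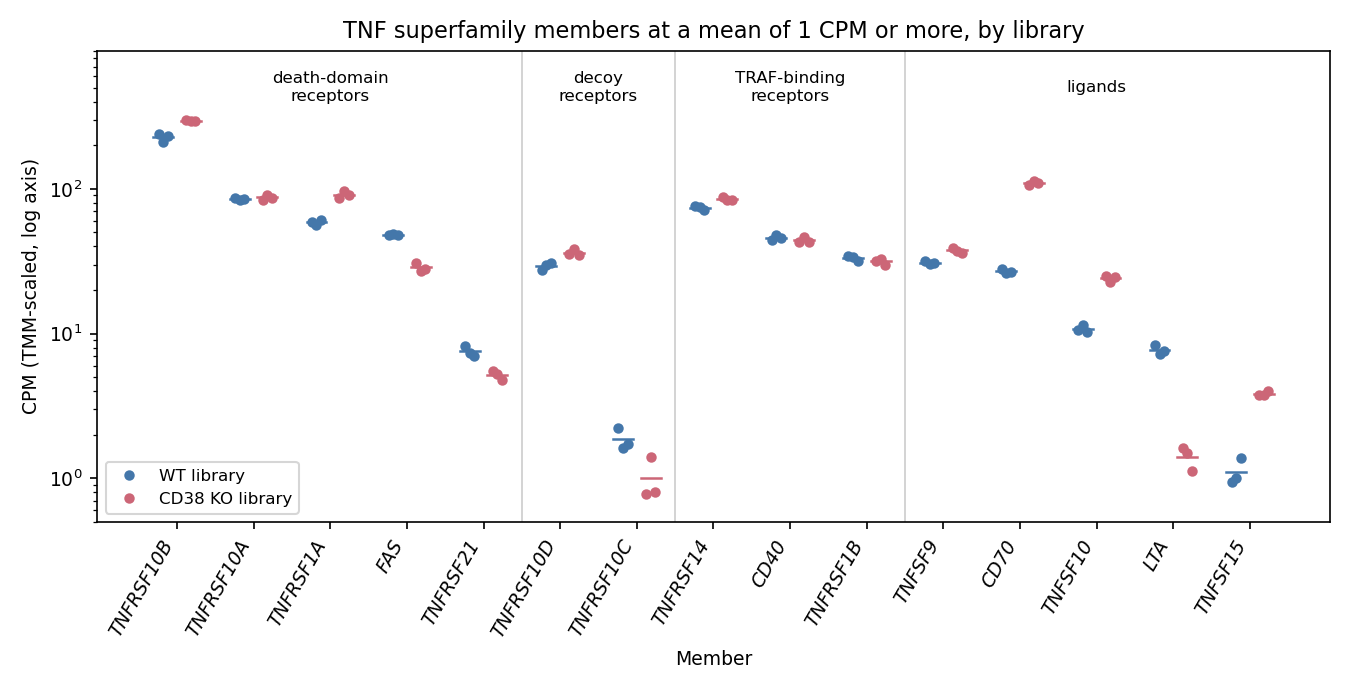
CPM on a log axis for the 15 members at a mean of 1 CPM or more, grouped by role, with 1 point per library (blue WT, red CD38 KO) and a line at the mean of each group of 3. CD70 lies between 26.2 and 27.8 CPM in WT and between 106.4 and 114.2 CPM in CD38 KO, while the CD40, TNFRSF1B and TNFRSF10A points of the groups overlap.

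Of all members tested, CD70 rose the most. Its WT libraries were at 27.8, 26.2 and 26.6 CPM and its CD38 KO libraries at 106.4, 114.2 and 109.7 CPM. The groups lay far apart, with a ratio of the means of 4.10 and a log2 fold change of 2.03 ± 0.0522 (SE; adjusted p = 1.67e-17 by edgeR). CD70 (ENSG00000125726) lies on chromosome 19, from 6583183 to 6604103 on the minus strand in GENCODE 29 (GRCh38). CD27, its only known receptor, had 6, 2 and 3 counts in WT and 13, 6 and 9 in CD38 KO, too few to be tested.

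TNFSF10, which encodes TRAIL, was at 10.7, 11.4 and 10.2 CPM in WT and at 24.9, 22.8 and 24.8 CPM in CD38 KO. Every CD38 KO library was thus above every WT library, with a log2 fold change of 1.16 ± 0.0822 (SE; adjusted p = 1.98e-10 by edgeR). TNFSF15 encodes TL1A, a ligand of TNFRSF25 that co-stimulates T cells. It rose from 0.946, 1.01 and 1.39 CPM in WT to 3.74, 3.78 and 4.04 CPM in CD38 KO (log2 fold change 1.79 ± 0.197, SE; adjusted p = 1.77e-07 by edgeR). This was a low level in both groups, with 70, 67 and 91 counts over the WT libraries, and 239, 225 and 250 over those of CD38 KO. The ligand of TNFRSF9 (4-1BB), TNFSF9, rose by less, from 31.8, 30.2 and 30.8 CPM in WT to 38.9, 37.4 and 36.3 CPM in CD38 KO. Its groups did not overlap, although the ratio of the means was only 1.21 (log2 fold change 0.28 ± 0.0611, SE; adjusted p = 0.000741 by edgeR).

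Both lymphotoxin genes were called lower. LTA encodes lymphotoxin alpha, which as a secreted trimer binds both TNF receptors and, joined with lymphotoxin beta from LTB, binds LTBR. LTA was at 8.28, 7.24 and 7.55 CPM in WT and at 1.61, 1.50 and 1.13 CPM in CD38 KO, 18.4% of the WT mean (log2 fold change -2.44 ± 0.159, SE; adjusted p = 5.25e-11 by edgeR). LTB had 54, 15 and 48 counts in WT and 6, 0 and 5 in CD38 KO. It passed the filter on low counts through the WT libraries alone, and its log2 fold change of -3.21 (SE 0.674, with an edgeR adjusted p of 0.000625) was between -3.72 and -2.66 when 1 library at a time was left out. WT replicate 2, with 15 counts, was the lowest of its group for LTB. TNF, which lies between both genes, had 2, 2 and 1 counts in WT and 1, 0 and 0 in CD38 KO and was not tested. The remaining tested ligands, TNFSF4 (OX40 ligand) and TNFSF8 (CD30 ligand), had 45 and 60 counts over the WT libraries and 21 and 36 over the CD38 KO libraries. Their log2 fold changes of -0.95 (95% interval -2.42 to 0.51) and -0.58 (-1.62 to 0.46) were not past the threshold.

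**Figure D2:**
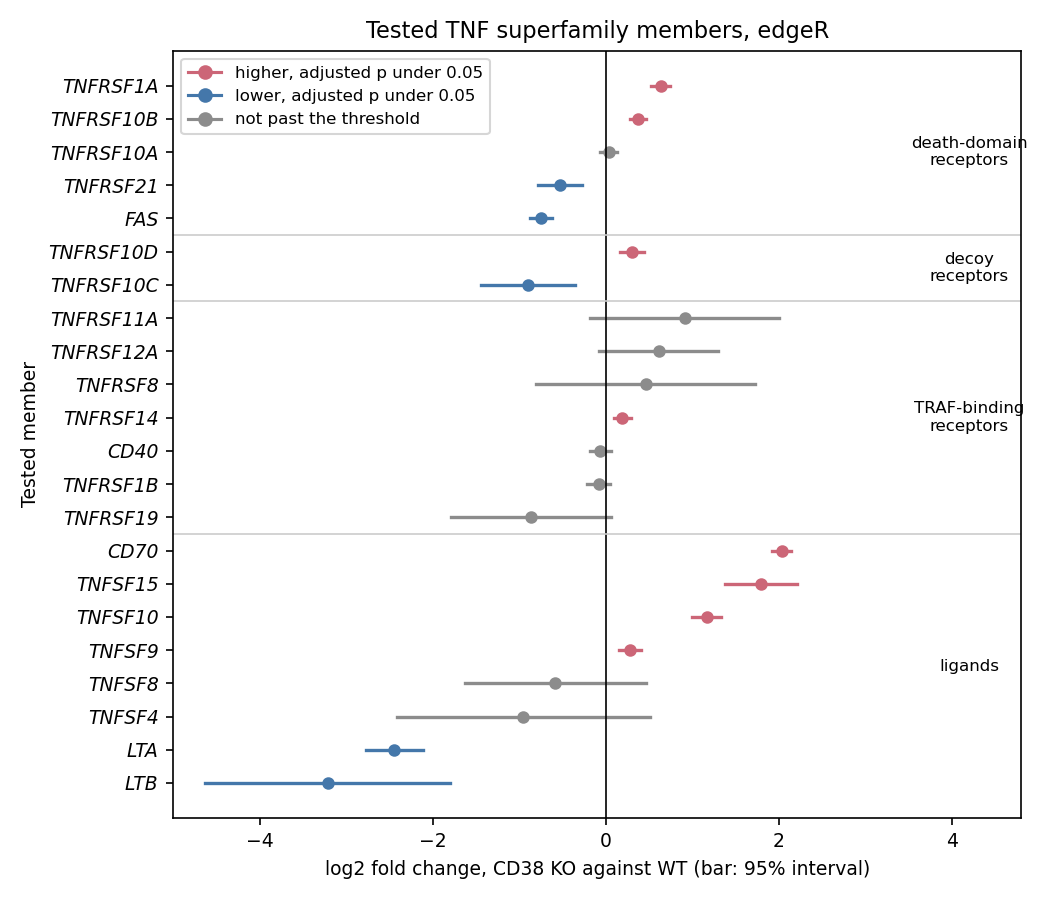
Log2 fold change of CD38 KO against WT for the 22 tested members by role, with 95% intervals from the edgeR fit (red higher, blue lower, grey not past the threshold). Of the 8 tested ligands 6 are coloured, from LTB at -3.21 to CD70 at 2.03, while none of the 14 tested receptors is past 1 in size. In the same fit 44.4% of all tested genes were called. LTB passed the filter on low counts through the WT libraries alone, where it is high.

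The stretches just before the annotated start sites are shown for 3 ligands and 2 receptors that changed and had an entry in the RefSeq promoter table (GRCh38.p14), which held 25 of the 38 members and 9 of the 15 at 1 CPM or more, and no entry for CD70. TNFSF9, TNFRSF14, TNFRSF21 and, with the limit on its counts given above, LTB were called and had an entry too, and are not printed. Each line gives the 250 bases before the RefSeq start, 5′ to 3′ on the gene's strand, and where RefSeq gives several starts, the one farthest upstream. Capitals mark matches, on either strand, to 4 patterns that factors acting on this family are known to bind: the NF-kB consensus, the interferon response element (GAAA, any 2 bases, GAAA), the STAT element TTCNNNGAA and the AP-1 element TGANTCA.
LTA (chr6:31571849-31572098, plus strand): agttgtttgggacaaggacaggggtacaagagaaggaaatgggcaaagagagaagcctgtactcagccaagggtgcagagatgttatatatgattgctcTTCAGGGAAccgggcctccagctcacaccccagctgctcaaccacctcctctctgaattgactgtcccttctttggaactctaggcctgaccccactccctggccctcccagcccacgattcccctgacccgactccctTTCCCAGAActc
TNFSF10 (chr3:172523431-172523680, minus strand): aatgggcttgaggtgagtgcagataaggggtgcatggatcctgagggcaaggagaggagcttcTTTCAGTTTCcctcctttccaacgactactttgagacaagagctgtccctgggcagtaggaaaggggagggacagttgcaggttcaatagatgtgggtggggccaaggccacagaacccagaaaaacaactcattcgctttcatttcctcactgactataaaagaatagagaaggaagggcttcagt
TNFSF15 (chr9:114792531-114792780, minus strand): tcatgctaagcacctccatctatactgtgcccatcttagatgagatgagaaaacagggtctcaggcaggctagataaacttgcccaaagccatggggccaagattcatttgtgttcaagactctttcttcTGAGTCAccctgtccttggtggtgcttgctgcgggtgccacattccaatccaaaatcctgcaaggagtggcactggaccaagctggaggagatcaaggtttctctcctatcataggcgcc
FAS (chr10:88990548-88990797, plus strand): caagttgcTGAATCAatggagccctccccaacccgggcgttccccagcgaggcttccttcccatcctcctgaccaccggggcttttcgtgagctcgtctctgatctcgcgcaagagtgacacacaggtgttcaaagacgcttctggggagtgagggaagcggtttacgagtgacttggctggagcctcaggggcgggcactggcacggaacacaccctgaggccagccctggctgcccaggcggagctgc
TNFRSF1A (chr12:6342077-6342326, minus strand): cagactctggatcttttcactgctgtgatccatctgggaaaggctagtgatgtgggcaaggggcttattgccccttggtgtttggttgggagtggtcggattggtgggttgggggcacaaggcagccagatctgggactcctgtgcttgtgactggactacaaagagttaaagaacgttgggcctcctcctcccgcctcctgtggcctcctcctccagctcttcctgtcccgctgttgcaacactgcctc
In GENCODE 29, LTA (ENSG00000226979) spans 31572054 to 31574324 of chromosome 6, and TNFSF10 (ENSG00000121858) spans 172505508 to 172523507 of chromosome 3. TNFSF15 (ENSG00000181634) spans 114784635 to 114806126 of chromosome 9, FAS (ENSG00000026103) spans 88990582 to 89015785 of chromosome 10, and TNFRSF1A (ENSG00000067182) spans 6328757 to 6342114 of chromosome 12. That annotation begins LTA, TNFSF10, FAS and TNFRSF1A inside these windows and lists a longer TNFSF15, so some of the letters can be transcribed. The TNFSF15 window lies wholly inside the gene as GENCODE 29 spans it, whose start is farther upstream. The bases just after the RefSeq start of TNFSF15 were not found in its GENCODE 29 transcripts, unlike those of the other genes shown. The LTA window held the STAT pattern at 151 and 12 bases before the start, a pattern found in 6.56% of the 34943 windows of this length in the table. LTB and the untested TNFRSF9 and TNFSF11 held the STAT pattern too. The NF-kB consensus, in 5.20% of all windows, stood 103 bases before LTA's other RefSeq start, 86 before LTB's and 157 before another start of FAS. TNFRSF14, which rose, held it 84 bases before its start, and the untested TNFRSF9 and TNFSF14 held it too. In TNFSF10 the interferon pattern stood 187 bases before the start (3.02% of all windows), and it stood 194 bases before the start of TNFSF9, 10 before that of TNFRSF1B, which was not past the threshold, and 72 before that of the untested FASLG. TNFSF15 and FAS held the AP-1 pattern at 120 and 242 bases (6.59% of all windows), as did the untested TNFRSF9, CD27 and TNFSF14 at other distances. TNFRSF1A held none of the 4, and neither did TNFRSF21, which was lower. A match is a string of letters in the reference, and no binding was measured.

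Death-domain receptors changed in both directions. TNFRSF1A, the main receptor of soluble TNF, rose from 59.5, 56.7 and 60.7 CPM in WT to 87.1, 96.2 and 90.6 CPM in CD38 KO, with no overlap (log2 fold change 0.63 ± 0.0512, SE; adjusted p = 1.73e-09 by edgeR). FAS, the receptor of FAS ligand, fell. Its WT libraries lay within 47.7 to 48.5 CPM and its CD38 KO libraries were at 30.7, 27.3 and 28.2 CPM, 59.6% of the WT mean (log2 fold change -0.75 ± 0.0611, SE; adjusted p = 2.02e-09 by edgeR). TNFRSF21 (DR6) was lower as well, at 8.23, 7.35 and 7.02 CPM in WT and 5.55, 5.26 and 4.81 CPM in CD38 KO (log2 fold change -0.53 ± 0.122, SE; adjusted p = 0.00110 by edgeR). TNFRSF25 (DR3), the receptor of TNFSF15, had 10, 5 and 7 counts in WT and 14, 18 and 7 in CD38 KO and was not tested.

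TRAIL can bind 4 receptors whose genes stand side by side on chromosome 8, TNFRSF10A and TNFRSF10B with a death domain and the decoys TNFRSF10C and TNFRSF10D. TNFRSF10B (DR5) was at 239.2, 211.7 and 232.8 CPM in WT and 298.2, 292.4 and 294.7 CPM in CD38 KO, a rise of 0.37 ± 0.0439 on the log2 scale (SE; adjusted p = 4.48e-07 by edgeR). TNFRSF10A (DR4) was at 86.5, 84.1 and 85.0 CPM in WT and 84.3, 91.2 and 86.3 CPM in CD38 KO. These overlapped, and its log2 fold change of 0.034 had a 95% interval of -0.063 to 0.13 (edgeR adjusted p = 0.596), with the opposite sign, -0.049, when library size alone set the scale. The decoys moved apart. TNFRSF10D rose from 27.5, 29.6 and 30.9 CPM to 35.5, 38.5 and 34.8 CPM (log2 fold change 0.31 ± 0.0669, SE; adjusted p = 0.000742 by edgeR), and TNFRSF10C, which was far less abundant, fell from 2.22, 1.63 and 1.74 CPM to 0.782, 1.41 and 0.807 CPM (log2 fold change -0.90 ± 0.260, SE; adjusted p = 0.00738 by edgeR). For TNFRSF10C, CD38 KO replicate 2 came close to the WT libraries, and leaving out WT replicate 1 ended the call (edgeR adjusted p = 0.0546, in a range of 0.000760 to 0.0546 over 15 alternatives). Reads may be shared between these similar genes.

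Per kilobase of exon, the decoys' part of TRAIL receptor RNA differed between the groups by less than the spread of the libraries. Their share was 10.6%, 11.7% and 11.6% over the WT libraries, and 10.8%, 11.7% and 10.6% over those of CD38 KO, 11.3% ± 0.616 and 11.1% ± 0.597 (SD, n = 3; two-sided exact permutation p = 1.0, where 3 against 3 cannot give less than 0.1). The summed level of TNFRSF10A and TNFRSF10B was 73.0 ± 3.16 CPM per kilobase in WT and 86.8 ± 0.687 in CD38 KO, and that of the decoys was 9.29 ± 0.353 and 10.8 ± 0.745 (SD, n = 3; exact permutation p = 0.1 for both sums, the smallest possible). TNFRSF11B (osteoprotegerin), a secreted decoy for TRAIL and RANK ligand, had 3 counts over the WT libraries and 3 over the CD38 KO libraries. The decoy TNFRSF6B was listed at 0 counts in all 6 libraries. All of its exon bases also belong to the read-through gene RTEL1-TNFRSF6B, which was at 1.28 ± 0.0605 CPM in WT against 1.30 ± 0.381 CPM in CD38 KO (SD, n = 3), so reads from TNFRSF6B could have been counted elsewhere or dropped.

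Receptors that bind TRAF adaptors changed little where they were well expressed. TNFRSF14 (HVEM), a receptor of lymphotoxin alpha and LIGHT that also binds BTLA, was at 76.2, 74.5 and 71.9 CPM in WT and at 87.3, 83.7 and 83.2 CPM in CD38 KO. That rise of 0.19 ± 0.0472 on the log2 scale (SE; adjusted p = 0.00217 by edgeR) was lost when library size alone set the scale (edgeR adjusted p = 0.0670, in a range of 0.00127 to 0.0670 over 15 alternatives). CD40, through which T cells activate B cells, was at 44.5, 48.1 and 45.5 CPM in WT and 42.7, 46.7 and 42.6 CPM in CD38 KO, with overlapping groups. Its log2 fold change was -0.065 (95% interval -0.19 to 0.057; edgeR adjusted p = 0.399). TNFRSF1B, the second TNF receptor, overlapped as well, at 34.4, 33.9 and 31.8 CPM in WT and 31.7, 32.9 and 30.0 CPM in CD38 KO (log2 fold change -0.083, 95% interval -0.22 to 0.051; edgeR adjusted p = 0.323). With library size alone, both were called lower, CD40 with an edgeR adjusted p of 0.0448 (range 0.0448 to 0.749 over 15 alternatives) and TNFRSF1B with 0.0409 (range 0.0409 to 0.719).

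Other TRAF-binding receptors were under 1 CPM. TNFRSF12A (the TWEAK receptor Fn14) had 119 counts over the WT libraries and 165 over the CD38 KO libraries, TNFRSF11A (RANK) had 43 and 74, TNFRSF8 (CD30) had 40 and 49, and TNFRSF19 had 104 and 52. None of these 4 was past the threshold. Their 95% intervals were wide, from -0.074 to 1.30 for TNFRSF12A, -0.18 to 2.0 for TNFRSF11A, -0.81 to 1.73 for TNFRSF8 and -1.79 to 0.065 for TNFRSF19, so changes of 2-fold in one direction lay inside each of them. A single library decided some of these results: TNFRSF11A was called higher without WT replicate 3 (edgeR adjusted p = 0.0318, range 0.0318 to 0.464 over 14 alternatives), TNFRSF12A higher without CD38 KO replicate 2 (0.0401, range 0.0401 to 0.578) and TNFRSF19 lower without CD38 KO replicate 1 (0.0160, range 0.0160 to 0.361). Among the WT libraries only replicate 3, with 26 counts, was over the filter on low counts for TNFRSF11A. Without that library TNFRSF11A passed the filter through the CD38 KO libraries alone, where it is high.

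The 16 members that were not tested had at most 18 counts in any library. They included CD40LG and FASLG, the T cell ligands of CD40 and FAS. CD40LG had 9 counts over the WT libraries and 6 over the CD38 KO libraries, and FASLG had 2 and 0. LTBR, the receptor of the joined lymphotoxins, had 24 and 22 counts, TNFSF14 (LIGHT) 6 and 8, TNFRSF9 5 and 1, TNFRSF4 (OX40) 8 and 11, and TNFRSF18 (GITR) 10 and 12. TNFSF12 (TWEAK) had 9, 1 and 0 counts in WT and 0, 1 and 0 in CD38 KO, and TNFSF11 (RANK ligand), which drives osteoclasts, had 3 counts over the WT libraries and 0 in CD38 KO. TNFSF18, TNFRSF6B and the read-through gene TNFSF12-TNFSF13 were at 0 counts in all libraries. TNFSF12-TNFSF13 shares 69.5% of its exon bases with TNFSF13 and 30.5% with TNFSF12, which shares 29.4% of its own with it. Reads from TNFSF12 and the read-through gene could thus have been counted elsewhere or dropped.

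Levels of different genes were compared per kilobase of merged exon in GENCODE 29, which joins the exons of all annotated transcripts of a gene. The transcripts present in these cells may be shorter, so the order of the genes depends on this length. The SDs cover the scatter of the libraries alone. In WT, TNFRSF10B was highest at 44.2 ± 2.79 CPM per kilobase, followed by TNFRSF10A at 28.9 ± 0.410. TNFSF9 at 18.6 ± 0.469, CD40 at 18.2 ± 0.741 and CD70 at 17.5 ± 0.535 came next. The difference between TNFSF9 and CD40 was within their SDs. CD40 and CD70 lay farther apart than the SD of CD70 but closer than the SD of CD40, and TNFRSF1A was at 14.7 ± 0.516 (SD, n = 3). In CD38 KO, CD70 was highest at 71.9 ± 2.55 CPM per kilobase, above TNFRSF10B at 57.2 ± 0.569 (SD, n = 3). LTA went from 4.43 ± 0.307 to 0.813 ± 0.145 and TNFSF10 from 3.10 ± 0.177 to 6.95 ± 0.341 CPM per kilobase (SD, n = 3), so that their order was reversed between the groups. TNFSF15, with a long annotated exon length, was the lowest of these members at 0.141 ± 0.0301 and 0.488 ± 0.0204 CPM per kilobase.

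**Figure D3:**
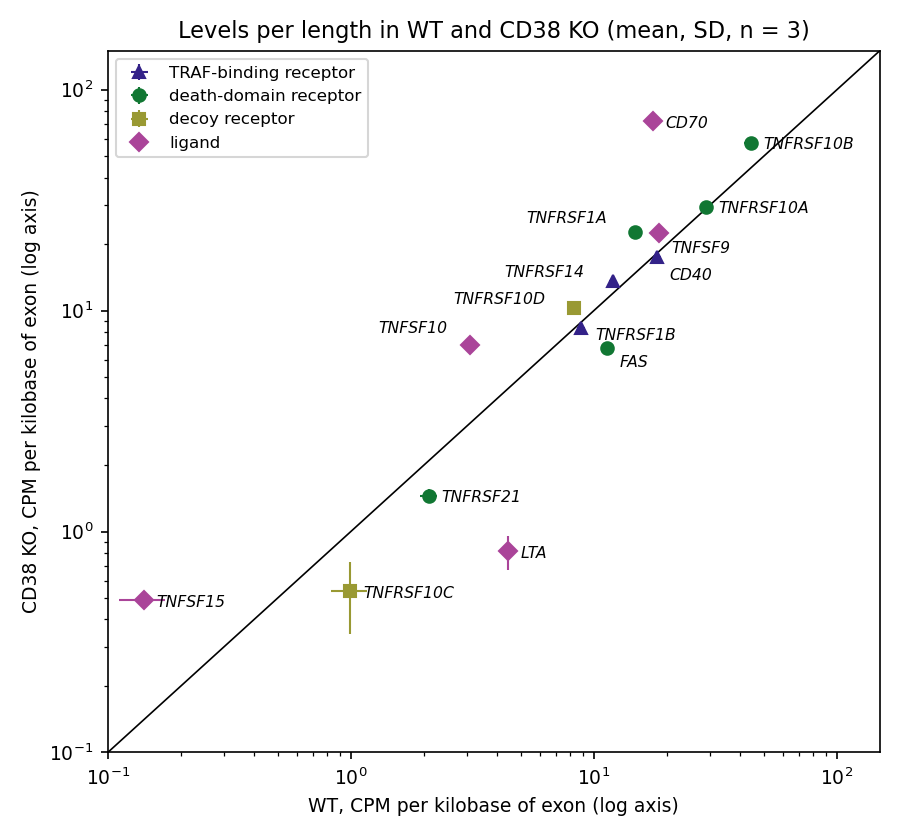
Mean CPM per kilobase of exon in WT (x) and CD38 KO (y), both on log axes, for the 15 members at a mean of 1 CPM or more, with SD bars (n = 3) and the line of equal level. CD70 (17.5 to 71.9), TNFSF10 and TNFSF15 lie above the line and LTA lies far below it, at 4.43 in WT and 0.813 in CD38 KO.

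Of 27 known pairs of a member ligand with a member receptor, 7 had both partners at a mean of 1 CPM or more. They involved 2 ligands, TNFSF10 with its 4 receptors on chromosome 8 and LTA with both TNF receptors and TNFRSF14. In the TNFSF10 pairs the ligand, TNFRSF10B and the decoy TNFRSF10D were higher in CD38 KO, TNFRSF10C was lower and TNFRSF10A was not past the threshold. For LTA the ligand was lower, TNFRSF1A and TNFRSF14 were higher and TNFRSF1B was not past the threshold. TNFRSF14 and TNFRSF10C stand with the limits given above. CD70, TNFSF9 and TNFSF15 had no receptor among the members at that level.

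Many members lie close to each other in the genome, and neighbours did not always move together. LTA and TNF are 1.24 kb apart on chromosome 6, in the class III region of the HLA complex, and LTB lies 2.19 kb past TNF. LTA was lower, as was LTB with the limit on its counts given above. The flanking NFKBIL1 had a log2 fold change of 0.059 (edgeR adjusted p = 0.618) and ATP6V1G2 one of -0.14 (0.536). On chromosome 19, TNFSF9, CD70 and TNFSF14 stand in a row, with 47.3 kb between TNFSF9 and CD70. TUBB4A, a neuronal tubulin gene on the other side of TNFSF9, rose by a log2 fold change of 2.78 (edgeR adjusted p = 1.28e-10), from 0.922 ± 0.264 to 6.38 ± 0.337 CPM (SD, n = 3), while GPR108, beyond CD70 and TNFSF14, was at -0.063 (edgeR adjusted p = 0.210). Around FAS on chromosome 10, the deubiquitinase gene STAMBPL1 went from 15.3 ± 0.891 to 8.12 ± 0.835 CPM and ACTA2, which overlaps FAS, from 1.26 ± 0.193 to 0.674 ± 0.145 CPM (SD, n = 3). Both fell, by log2 fold changes of -0.92 and -0.90, and LIPA, 197.8 kb away, was at -0.095 (edgeR adjusted p = 0.202).

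TNFRSF1A lies 32.9 kb from LTBR and 102.8 kb from CD27 on chromosome 12. The 1081 tested genes of that chromosome had a median log2 fold change of -0.11, with 19.1% called higher and 31.3% called lower, so TNFRSF1A rose on a chromosome where more genes fell. Its nearest tested neighbours, PLEKHG6 and SCNN1A, were under 1 CPM and not past the threshold, at log2 fold changes of -0.63 and -0.67 (edgeR adjusted p = 0.273 and 0.186). Farther away, at 90.5 and 109.6 kb, CD9 rose by 0.80 and TAPBPL by 0.49 on the log2 scale. TNFRSF19, which was not past the threshold at -0.86, lies on chromosome 13, where the median over 392 tested genes was 0.39. Chromosomes 19 and 6, which carry CD70 and the lymphotoxin genes, had medians of 0.044 and -0.00091. On chromosome 9, TNFSF15 and TNFSF8 are 87.2 kb apart. TNC, the tenascin gene beyond TNFSF8, rose with TNFSF15, from 4.86 ± 0.719 to 11.0 ± 1.42 CPM (SD, n = 3), a log2 fold change of 1.18.

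Some members share exon bases with other genes, and without a stated strand setting their reads cannot be told apart there. TNFRSF14 shares 13.4% of its exon bases with its antisense gene TNFRSF14-AS1, which went from 5.06 ± 0.260 to 8.54 ± 0.816 CPM (SD, n = 3), a log2 fold change of 0.75. CD27 shares 37.0% with CD27-AS1, which was at 17.3 ± 0.187 CPM in WT against 30.0 ± 2.96 CPM in CD38 KO (SD, n = 3). TNFRSF10C shares 26.0% with a noncoding RNA on the same strand that was at 0.870 ± 0.0844 and 1.21 ± 0.0445 CPM (SD, n = 3). No such overlap was found for CD70, LTA, LTB, TNFSF10, TNFSF15, TNFSF9 or CD40.

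Genes that act with the superfamily were followed in 7 lists of 126 entries. Their counts stand beside 22.8% of all tested genes called higher and 21.6% called lower, which are 4592 and 4342 of 20120 genes. Counts with library size alone stand beside 3632 of these genes called higher and 5570 called lower on that scale, where falls were more common. Of 22 adaptors and kinases close to the receptors, all tested, 3 rose and 8 fell (median log2 fold change -0.036), or 1 and 9 when library size alone set the scale. TRADD, which links TNFRSF1A to RIPK1 and FADD, fell from 133.3 ± 2.68 to 91.9 ± 3.20 CPM and the kinase RIPK1 from 41.2 ± 0.845 to 26.6 ± 1.44 CPM (SD, n = 3, with edgeR adjusted p = 1.95e-09 and 4.21e-08). RIPK2, which acts below NOD receptors, and TRAF4 were lower too, at log2 fold changes of -0.56 and -0.46, while TRAF3IP2 and TRAF2 rose by 0.39 and 0.20. The call of TRAF2 was lost with library size alone (edgeR adjusted p = 0.0930, the highest of 15 alternatives). FADD, the adaptor of FAS and the TRAIL receptors, was at 12.3 ± 0.669 CPM in WT against 12.3 ± 0.868 CPM in CD38 KO (SD, n = 3), and TRAF3, which restrains the noncanonical NF-kB kinase MAP3K14, had a log2 fold change of 0.075 (edgeR adjusted p = 0.297). The count of called genes in this list was 7 of 22 without WT replicate 3, 2 higher and 5 lower. Calls over all genes were fewer there too, at 7767 of 20826 tested genes.

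Of 17 genes of death signalling, 5 rose and 6 fell (median -0.026). The initiator caspases of death receptors were both higher. CASP10 rose from 98.5 ± 2.87 to 176.3 ± 5.69 CPM and CASP8 from 180.5 ± 4.14 to 249.2 ± 11.6 CPM (SD, n = 3, with edgeR adjusted p = 1.31e-12 and 9.76e-09). CASP6, an executioner caspase, and the caspase substrate PARP1 fell, by log2 fold changes of -0.60 and -0.52. HTRA2, a mitochondrial protease that counters IAP proteins, went from 74.2 ± 2.95 to 35.3 ± 0.588 CPM (SD, n = 3), a log2 fold change of -1.07.

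Among 15 inhibitors of death receptor signalling, 13 were tested, of which 5 rose and 5 fell (median -0.056), or 3 and 6 with library size alone. BIRC5 (survivin), which also acts in mitosis, rose from 60.4 ± 3.29 to 164.4 ± 3.81 CPM (SD, n = 3), and PTPN13, a phosphatase that binds FAS, rose by a log2 fold change of 1.17. TNFAIP3 (A20), the ubiquitin-editing brake on TNF signalling, fell from 382.6 ± 6.74 to 223.3 ± 3.49 CPM (SD, n = 3), and the FADD-binding protein PEA15 and FAIM fell by 0.63 and 0.44 on the log2 scale. BIRC2 (cIAP1) rose by 0.28, and CFLAR (FLIP), the direct competitor of CASP8, by 0.14 (edgeR adjusted p = 0.00661). The call of CFLAR was lost in 1 of 15 alternatives, where its adjusted p reached 0.250.

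The ubiquitin machinery at TNF receptors moved in both directions as well, with 6 of 23 tested genes higher and 7 lower (25 listed, median -0.024), or 4 and 10 with library size alone. RBCK1 (HOIL-1), a subunit of the linear ubiquitin ligase, rose from 129.9 ± 2.24 to 188.3 ± 8.07 CPM (SD, n = 3). Its partner SHARPIN had a log2 fold change of 0.018 (edgeR adjusted p = 0.787), or -0.066 with library size alone. The deubiquitinase CYLD, the kinases TBK1 and IKBKE, the conjugating enzyme UBE2N and the A20-binding protein TNIP2 fell, by log2 fold changes of -0.47, -0.63, -1.08, -0.52 and -0.41.

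Of 15 sheddases and other proteases acting on the family, 12 were tested, of which 4 rose and 5 fell (median -0.13), or 2 and 5 with library size alone. ADAM8 went from 1130 ± 69.1 to 473.6 ± 7.21 CPM and the intramembrane protease SPPL2A, which cleaves the TNF stub in the membrane, from 89.2 ± 3.01 to 44.8 ± 0.695 CPM (SD, n = 3). ADAM17, the TNF-converting enzyme, rose by a log2 fold change of 0.19 (edgeR adjusted p = 0.0137, and up to 0.149 over the alternatives) and its partner RHBDF2 (iRhom2) by 0.74, whereas ADAM10 fell, at -0.34. FURIN and SPPL2B fell by 0.54 and 0.38 on the log2 scale, and ADAM9 rose by 0.46. Superfamily genes under other symbols (8 listed, 6 tested) had 2 higher and 1 lower. The ectodysplasin gene EDA fell from 3.16 ± 0.217 to 1.05 ± 0.163 CPM, its receptor EDA2R rose from 44.7 ± 1.39 to 53.2 ± 5.10 CPM (SD, n = 3), and RELL2 rose by a log2 fold change of 0.46.

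Genes that TNF is known to induce through NF-kB went both ways, with 8 of 18 tested higher and 7 lower (24 listed, median 0.15). BCL3, an atypical IkB protein, and the chemokine gene CCL4 rose, from 47.0 to 159 and from 157 to 410 CPM on average, as did the adhesion gene ICAM1 (log2 fold change 1.61) and the AP-1 gene JUNB (0.95). CCL5 fell from 45.6 ± 1.58 to 3.96 ± 0.199 CPM (SD, n = 3), as did TNFAIP3, which stands on this list too. NFKBIA, an early target of the pathway, was at 181.9 ± 4.42 CPM in WT against 187.1 ± 3.86 CPM in CD38 KO (SD, n = 3, with edgeR adjusted p = 0.447). Called genes made up 50% to 83.3% of the tested genes across these lists, some of which were under 1 CPM. Beside them stand 44.4% of all tested genes and 61.0% of tested protein-coding genes at 1 CPM or more.

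**Figure D4:**
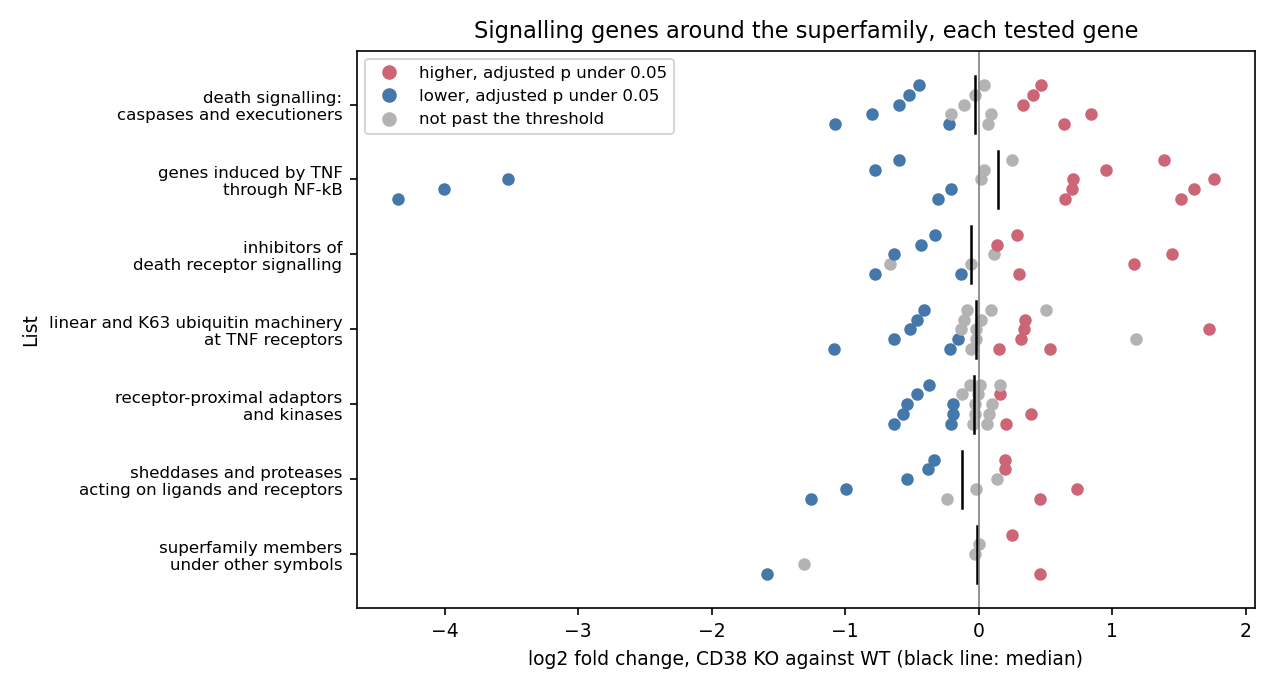
Log2 fold change of CD38 KO against WT for each tested gene of the 7 lists (red higher, blue lower, grey not past the threshold), with a black line at the list's median; the vertical spread within a row only separates the points. Medians lie between -0.13 and 0.15, and every list holds genes on both sides of 0.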

How the data were processed

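RNA of sorted MM.1S cells was sequenced in 6 libraries, 3 per group. Per the labels' protocols, libraries were made from 10 ng of RNA with a SMARTer low-input kit. The authors deposited raw read counts per gene in 1 table. Tools listed by the submitters' processing notes, with no role, are Partek, DESeq2 and STAR 2.7.9a. No build, annotation, counter or strand setting is given in the sources used here. Of 60871 lines, 200 repeated an Ensembl ID with the same counts and were dropped.

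The groups were compared with edgeR 4.0.16 in R 4.3.3 (quasi-likelihood, TMM factors, filterByExpr, robust dispersions, no covariate). Intervals are 95% intervals of the fit. Standard errors came from the log2 fold change and its F statistic. The procedure was also run on simulated counts, with the same dispersion for all genes and far fewer changed genes than were called here. That run does not show how reliable the calls are in these data. Alternatives used other scalings and filters, DESeq2 1.42.0, limma-voom (limma 3.58.1), a test against a 2-fold change, the replicate number as a block, protein-coding genes only and each library left out. Positions and exon lengths came from GENCODE 29 by Ensembl ID, and promoters from RefSeq.

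Members and lists were chosen with earlier results of these data known. Members at a mean of 1 CPM or more are given by library, and up to 6 called genes per list with the smallest adjusted p are named, with direct adaptors of members; 1 such gene is not reported here. The neighbours and overlapping genes, and the list genes SHARPIN, ADAM17, ADAM10, CFLAR and NFKBIA, were chosen after their values were seen.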

Additional observations from a re-analysis of the deposited data

How the results depend on the processing

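Of the 13 called members, 11 kept their direction and call in each of 15 alternatives in which they were tested, the test against a 2-fold change left aside. The exceptions were TNFRSF14 and TNFRSF10C. Against a 2-fold change edgeR called 1061 genes, 556 higher and 505 lower, and 4 members (CD70, TNFSF15, LTA and LTB), 2 higher and 2 lower. LTB, here and among the 11, passed the filter on low counts through the WT libraries alone, where it is high. No receptor passed it (0, with 0 higher and 0 lower), 2 ligands were higher, and the lists had 0 (death signalling), 6 (genes induced by TNF), 1 (inhibitors), 0 (ubiquitin machinery), 0 (adaptors), 1 (proteases) and 1 (other symbols) called genes.

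With library size alone, 5 of 14 tested receptors were called lower, beside 5570 of all 20120 tested genes. TNFRSF10A was at -0.049, and the median of members, and of receptors, was 0.029, while that of all genes was -0.083. The median of members was 0.018 with no filter, 0.20 with a filter at 1 CPM, 0.27 with DESeq2 and 0.011 with limma-voom. That of receptors was -0.0086 with the 1 CPM filter, 0.30 with DESeq2 and 0.011 with limma-voom. That of ligands was -0.78 with no filter and 1.17 with the 1 CPM filter, where LTB was no longer tested and 1 ligand was called lower. No filter left 35 members tested, DESeq2 29, limma-voom 22 and the 1 CPM filter 15. The DESeq2 medians were the values of TNFSF9 for members and TNFRSF10D for receptors. Those of limma-voom lay between TNFRSF8 and TNFRSF10A, the latter at 0.033. The cause of the other changes was not tested. TNFRSF8 was at -0.0097 with limma-voom, and between -0.015 (without CD38 KO replicate 2) and 0.96 (without CD38 KO replicate 1) with 1 library left out. Leaving out 1 library left 23 or 24 members tested, with medians of 0.0023 to 0.21 for members and for receptors. It gave 7 to 10 called adaptors, beside 7767 to 8761 called genes of all tested.

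The replicate numbers did not pair the libraries: same-numbered libraries had correlations of deviations of 0.034, -0.0080 and -0.021, and 1 of 3 WT libraries correlated best with its own number. With the replicate block, 8918 genes and 13 members were called, and no member's call changed. Low counts limit the 16 untested members and the 7 tested ones under 1 CPM.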
